A study of Homo sapiens with 6 samples.

Results

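The MAP kinase cascade kinases described here were the genes whose symbol is MAPK, MAP2K, MAP3K or MAP4K followed by a number and whose read counts summed to at least 60 over all libraries. Of 65746 genes listed, 43 had such a symbol and 36 reached that sum: 10 MAPK, 6 MAP2K, 15 MAP3K and 5 MAP4K genes. All 36 were among the 11525 genes that passed the filter on low counts and were tested. RNA came from SU-DHL-8 cells, an established human diffuse large B-cell lymphoma line labelled as wild type in genotype. One group of 3 libraries came from cells given 15 µM beta-sitosterol (beta-ST), a plant sterol, for 24 h, and the other group of 3 came from cells given DMSO at an equal concentration for 24 h. The labels speak of replicate experiments but do not say how separate the cultures were, so p-values measure only the spread between these libraries, which may be technical.

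MAP kinase cascades pass a signal by phosphorylation through tiers of kinases: MAP4Ks act on MAP3Ks, MAP3Ks on MAP2Ks, and MAP2Ks on the MAPKs, which phosphorylate transcription factors and other kinases. The ERK arm (MAP2K1 and MAP2K2, then MAPK3 and its relatives) is best known downstream of growth factor and antigen receptors, the JNK and p38 arms downstream of stress and inflammatory cytokines, and the ERK5 arm (MAP2K5, then MAPK7) downstream of both kinds of signal. In B cells these arms lie downstream of the antigen receptor, CD40 and Toll-like receptors. RNA levels are what was measured here, and they do not report phosphorylation or activity.

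Each library held 26453281 to 29360142 counts in the beta-ST group and 31314446 to 35565620 in the DMSO group. Levels are given in CPM, counts scaled to the TMM-adjusted total of all tested genes, as mean ± SD of 3 libraries where averaged. DMSO replicate 2 stood apart: its log2 CPM correlated across genes at 0.982 and 0.972 with the other DMSO libraries, against 0.991 between those libraries and 0.994 among the beta-ST libraries. The kinases spread accordingly, with a median SD of log2 CPM of 0.09 in beta-ST and 0.27 in DMSO libraries, and DMSO had the larger SD for 30 of 36 kinases (83.3%, against 84.7% of all genes tested). All 8 B cell markers were detected, with a summed level of 2289 to 2454 CPM in beta-ST and 1820 to 2519 CPM in DMSO libraries. Of them 3 rose and 1, PAX5, fell (50.0% called, against 40.8% of all genes), and their part in the results was not tested. T cell markers summed to at most 1.70 CPM in beta-ST and 2.17 CPM in DMSO libraries, with CD3E, CD3G and CD2 listed at 0. Myeloid markers summed to at most 8.47 CPM in beta-ST and 7.36 CPM in DMSO libraries, with FCGR3A and S100A8 listed at 0. Most of that sum was LYZ, which averaged 5.83 CPM in beta-ST and 5.19 CPM in DMSO libraries. Epithelial and fibroblast markers summed to at most 5.27 CPM in beta-ST and 6.68 CPM in DMSO libraries, with DCN listed at 0. Of these, VIM fell (2.95 CPM in beta-ST and 5.72 CPM in DMSO libraries), and COL1A1, under 1 CPM in every library, rose.

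The kinases were more often lower than higher after beta-ST. In bulk RNA, a lower level in every cell and fewer cells that carry the RNA cannot be told apart. By edgeR's quasi-likelihood test with Benjamini-Hochberg adjustment over all genes tested, 3 rose, 14 fell and 19 missed the threshold of 0.05, so that 47.2% were called, against a background of 40.8% of all genes. The share that fell was 38.9% of the kinases and 21.8% of all genes, and the share that rose was 8.33% of the kinases and 19.0% of all genes. The median log2 fold change was -0.31 over the kinases, with a range of -1.28 to 1.16, and -0.04 over all genes. MAPK3 and MAP3K8 rose and MAPK7 and MAP2K3 fell by more than 2-fold. All beta-ST libraries lay above all DMSO libraries for 5 kinases and below them for 16, against a background of 27.0% above and 29.1% below, 56.1% in all, over all genes tested. The 17 called kinases all had groups that did not overlap, which rests on the same libraries as the calls and is no separate support for them. All 17 were also past the threshold without DMSO replicate 2, where 56.6% of all genes were called. With any other single library left out, 10 to 14 of the 17 were still called.

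The genes of these kinases are long, and fold changes moved with exon length across the whole table. Of 5 equal classes of all tested genes by GENCODE v29 exon length, the longest held 12 of the kinases and the shortest held 0. In the longest class 34.1% of all genes fell and 10.1% rose, with a median log2 fold change of -0.26, and in the shortest 12.2% fell and 29.6% rose, with a median of 0.22. After the length trend was removed, 4 kinases rose and 14 fell, and the median of the kinases lay 0.20 below that of all genes, against 0.27 below it with the trend left in.

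**Figure D1:**
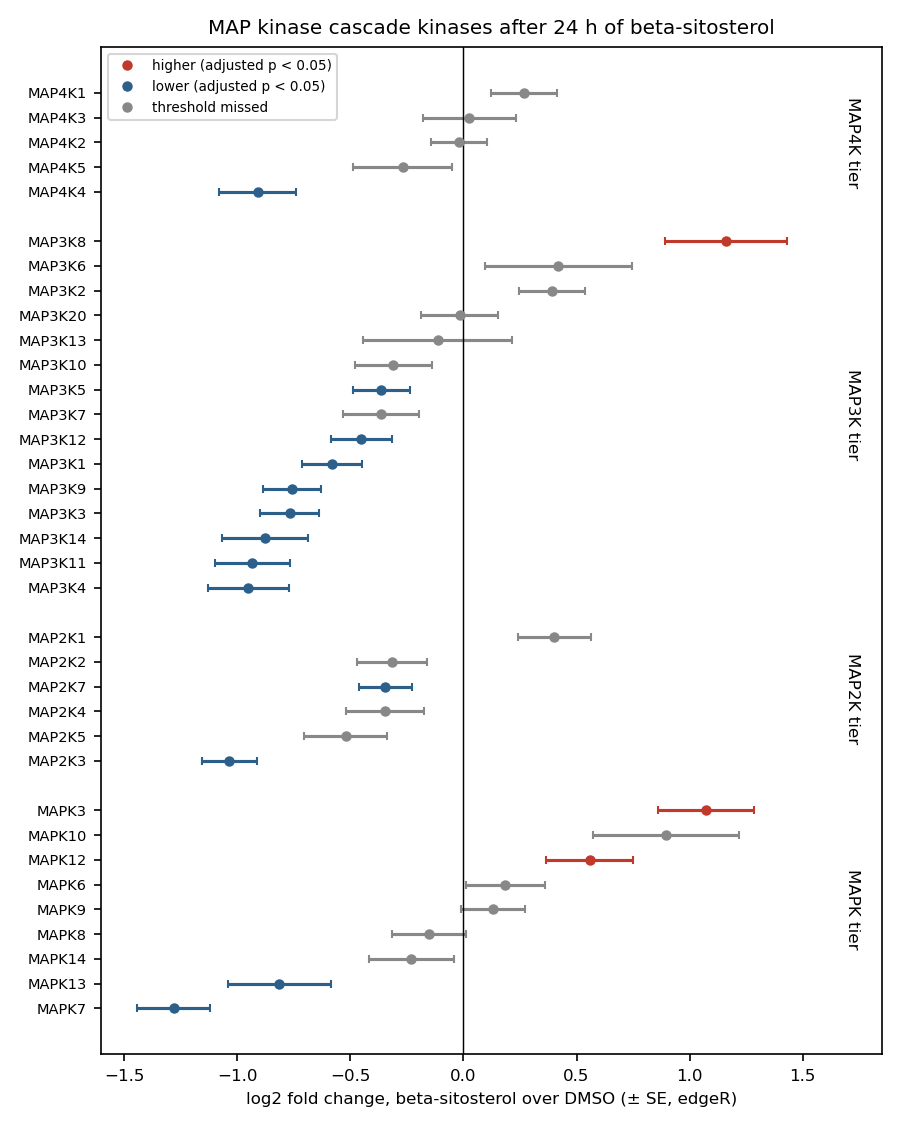
Log2 fold change of each of 35 of the kinases, beta-sitosterol over DMSO (points, with SE bars from edgeR; 3 libraries per group), by tier and sorted within it; red and blue mark kinases past the adjusted p of 0.05 and grey those that missed it. In the MAP3K tier 8 of 15 lie left of zero past the threshold and MAP3K8 alone lies to the right past it.

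In the ERK arm the terminal kinase gene MAPK3 rose. MAPK3 encodes ERK1 (chromosome 16, 30114105 to 30123220, GRCh38.p14) and had 38.8, 40.5 and 43.0 CPM in beta-ST libraries, against 15.1, 26.4 and 16.6 CPM in DMSO libraries. Every beta-ST library was above every DMSO library, and the highest DMSO value was that of replicate 2. The log2 fold change of MAPK3 was 1.07 ± 0.21 (SE; edgeR adjusted p = 0.00462).

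The MAP2Ks that phosphorylate ERK1 missed the threshold. MAP2K1 encodes MEK1 and had 49.0, 47.0 and 44.8 CPM in beta-ST libraries, against 36.5, 27.9 and 42.1 CPM in DMSO libraries; the groups did not overlap, and the log2 fold change was 0.40 ± 0.16 (edgeR adjusted p = 0.0776). MAP2K2 encodes MEK2 and had 147.3, 138.1 and 144.0 CPM in beta-ST libraries, against 174.2, 143.6 and 216.6 CPM in DMSO libraries, which overlapped (log2 fold change -0.32 ± 0.16, edgeR adjusted p = 0.139). For MAP2K2 the log2 fold change was -0.45 without DMSO replicate 2 (edgeR adjusted p = 0.00105) and -0.11 without DMSO replicate 3 (edgeR adjusted p = 0.461). MAP2K1 was past the threshold without DMSO replicate 3 (adjusted p = 0.0137), and of its exons 11.5% overlap another gene, SNAPC5 among them.

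The p38 arm held members that moved both ways. MAP2K3 encodes MKK3, an upstream activator of p38 (chromosome 17, 21284711 to 21315240), and had 133.3, 121.5 and 123.7 CPM in beta-ST libraries, against 244.3, 241.6 and 289.4 CPM in DMSO libraries. Its groups stood far apart, and it fell by 1.03 ± 0.12 on the log2 scale (edgeR adjusted p = 0.000477). MAP2K6, the other p38-directed MAP2K, summed to 28 counts and so lay outside the set, with 1, 2 and 3 counts in beta-ST libraries and 7, 13 and 2 counts in DMSO libraries. MAPK14 encodes p38 alpha, the p38 enzyme found in most tissues, and had 50.6, 51.4 and 49.5 CPM in beta-ST libraries, against 70.6, 42.0 and 65.1 CPM in DMSO libraries. The DMSO values lay on either side of the beta-ST values, with replicate 2 the low one, and the log2 fold change of -0.23 ± 0.19 missed the threshold (edgeR adjusted p = 0.353). Without DMSO replicate 2 it was -0.43 with an adjusted p of 0.00154.

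MAPK12, which encodes p38 gamma, had 129, 117 and 126.6 CPM in beta-ST libraries, against 86.7, 60.6 and 105.9 CPM in DMSO libraries. It rose by 0.56 ± 0.19 on the log2 scale, with groups that did not overlap (edgeR adjusted p = 0.0473). The MAPK12 call ended when DMSO replicate 1 or beta-ST replicate 1, 2 or 3 was left out, with adjusted p of 0.115, 0.140, 0.0971 and 0.128. It was also lost on log2(TPM + 1) and log2(TPM + 0.1), at values of 0.31 and 0.33 (limma adjusted p of 0.526 and 0.519). HDAC10 overlaps 29.3% of the MAPK12 exons and averaged 1.74 CPM in beta-ST and 1.46 CPM in DMSO libraries. MAPK13, which encodes p38 delta, was low, with 1.19, 1.74 and 1.60 CPM in beta-ST libraries and 2.85, 2.38 and 2.71 CPM in DMSO libraries. It fell by 0.81 ± 0.23 on the log2 scale (edgeR adjusted p = 0.0216), a call that ended without DMSO replicate 1 or beta-ST replicate 1 or 3, with adjusted p of 0.0676, 0.0946 and 0.0632. MAPK11, which encodes p38 beta, summed to 38 counts and was not tested: beta-ST libraries held 12, 16 and 8 counts and DMSO libraries 2, 0 and 0.

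In the JNK arm only MAP2K7 passed the threshold. MAP2K7 encodes MKK7, which phosphorylates JNK, and had 50.5, 47.6 and 49.3 CPM in beta-ST libraries, against 62.0, 56.6 and 68.6 CPM in DMSO libraries. The groups did not overlap, and it fell by 0.34 ± 0.12 on the log2 scale (edgeR adjusted p = 0.0473). The call was kept without DMSO replicate 2 and ended without each of the other libraries, at adjusted p of 0.0895 to 0.182. Over all 16 alternative runs, those with a library left out included, MAP2K7 was past the threshold in 3. With all libraries kept it missed with RLE factors (edgeR adjusted p = 0.0707) and with DESeq2 (adjusted p = 0.0546). MAP2K4, which encodes MKK4 and acts on JNK and p38, had 14.0, 16.2 and 12.7 CPM in beta-ST libraries, against 18.3, 21.3 and 14.9 CPM in DMSO libraries (log2 fold change -0.35 ± 0.17, edgeR adjusted p = 0.137). The fold change of MAP2K4 was as large as that of MAP2K7, its groups overlapped, and its SE was larger. Of the JNK genes, MAPK8 (JNK1) averaged 21.4 ± 0.39 CPM in beta-ST and 23.8 ± 4.62 CPM in DMSO libraries, with overlapping groups. MAPK9 (JNK2) averaged 58.4 ± 4.44 CPM in beta-ST and 53.3 ± 7.92 CPM in DMSO libraries, also overlapping. MAPK10 (JNK3), known mainly from neurons, had 2.11, 2.04 and 1.38 CPM in beta-ST libraries, against 0.85, 1.41 and 0.72 CPM in DMSO libraries. Its log2 fold change of 0.89 ± 0.32 lay just outside the threshold (edgeR adjusted p = 0.0549). It passed without DMSO replicate 2 (1.22, adjusted p = 0.00361). It also passed with all libraries under RLE factors, other filters, DESeq2 or removal of the length trend, at adjusted p of 0.00400 to 0.0482. MAPK10 missed the threshold without each of the other libraries, at edgeR adjusted p of 0.0608 to 0.176. On log2(TPM + 1) and log2(TPM + 0.1) it came to 0.0081 and 0.073 (limma adjusted p of 0.898 and 0.761).

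The ERK5 arm held the kinase with the largest fall in the set. MAPK7 encodes ERK5 (chromosome 17, 19377750 to 19383544) and had 11.8, 11.7 and 12.2 CPM in beta-ST libraries, against 23.8, 34.6 and 28.2 CPM in DMSO libraries. The beta-ST libraries lay close together and far below all DMSO libraries, and MAPK7 fell by 1.28 ± 0.16 on the log2 scale (edgeR adjusted p = 0.000654). MAP2K5, which encodes MEK5 and phosphorylates ERK5, had 17.0, 21.0 and 21.1 CPM in beta-ST libraries, against 23.0, 35.2 and 26.5 CPM in DMSO libraries. Its groups did not overlap, but its log2 fold change of -0.52 ± 0.18 narrowly missed the threshold (edgeR adjusted p = 0.0510) and passed it without DMSO replicate 1 or 2 (adjusted p of 0.0377 and 0.0422).

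Of the MAP3Ks known to act on MEK5, MAP3K3 fell and MAP3K2 missed the threshold with a fold change of the other sign. MAP3K3 (MEKK3) had 29.3, 27.6 and 26.1 CPM in beta-ST libraries, against 45.7, 42.4 and 53.2 CPM in DMSO libraries, and fell by 0.77 ± 0.13 on the log2 scale (edgeR adjusted p = 0.00252). LIMD2, which overlaps 6.6% of the MAP3K3 exons, averaged 593.1 CPM in beta-ST and 199.8 CPM in DMSO libraries, the reverse direction. MAP3K2 (MEKK2) had 43.2, 40.1 and 36.0 CPM in beta-ST libraries, against 34.1, 31.2 and 25.7 CPM in DMSO libraries. All MAP3K2 values were higher with beta-ST, but the log2 fold change of 0.39 ± 0.15 missed the threshold (edgeR adjusted p = 0.0616) and passed it without DMSO replicate 2 (adjusted p = 0.0173). MAPK6, the atypical MAPK ERK3, averaged 42.6 ± 3.23 CPM in beta-ST and 37.5 ± 8.25 CPM in DMSO libraries, which overlapped (edgeR adjusted p = 0.426).

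The MAP3K tier, where many inputs enter the cascades, had 1 rise and 8 falls among 15 kinases (background 40.8% called) and a median log2 fold change of -0.36. MAP3K8 encodes TPL2 (chromosome 10, 30434021 to 30461833), which activates MEK1 and MEK2 in inflammatory signalling and is held inactive by the NFKB1 product p105. It was weakly expressed, with 106, 54 and 70 counts in beta-ST libraries, against 45, 34 and 44 counts in DMSO libraries. In CPM these were 3.60, 2.04 and 2.54 in beta-ST libraries and 1.32, 1.07 and 1.27 in DMSO libraries. The groups did not overlap, beta-ST replicate 1 being the highest, and the log2 fold change was 1.16 ± 0.27 (edgeR adjusted p = 0.00949). On the scale of log2(TPM + 1) the value was 0.34 and the call was lost (limma adjusted p = 0.0899). On log2(TPM + 0.1) the value was 0.75 and the call was also lost (limma adjusted p = 0.104).

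Of the MAP3Ks that feed the JNK and p38 arms, MAP3K4 (MEKK4) had 28.7, 30.4 and 35.2 CPM in beta-ST libraries, against 57.8, 76.0 and 48.4 CPM in DMSO libraries. It fell by 0.95 ± 0.18 on the log2 scale (edgeR adjusted p = 0.00395), with replicate 2 the highest of the DMSO libraries. MAP3K1 (MEKK1) had 33.8, 37.3 and 34.6 CPM in beta-ST libraries, against 50.9, 60.3 and 46.8 CPM in DMSO libraries. It fell by 0.58 ± 0.13 (edgeR adjusted p = 0.00896), and the call ended without beta-ST replicate 1 (adjusted p = 0.0533). MAP3K5 (ASK1), a sensor of oxidative stress, had 10.9, 12.1 and 11.4 CPM in beta-ST libraries, against 14.9, 15.2 and 14.3 CPM in DMSO libraries. The change in MAP3K5 was small and stood at the threshold (log2 fold change -0.36 ± 0.13, edgeR adjusted p = 0.0496). The call was kept without DMSO replicate 2 and ended without each of the other libraries, at adjusted p of 0.0543 to 0.185. Over all 16 alternative runs MAP3K5 was past the threshold in 3. Its partner MAP3K6 (ASK2) averaged 3.22 ± 0.88 CPM in beta-ST and 2.40 ± 0.94 CPM in DMSO libraries, which overlapped. MAP3K7 (TAK1), which links cytokine and Toll-like receptors to the p38, JNK and NF-kB pathways, had 105.3, 111.3 and 108.1 CPM in beta-ST libraries, against 130.4, 175.7 and 111.7 CPM in DMSO libraries. The groups did not overlap, yet the log2 fold change of -0.36 ± 0.17 missed the threshold (edgeR adjusted p = 0.118). MAP3K7 was past it without DMSO replicate 3 (-0.46, edgeR adjusted p = 0.0376) and on log2(TPM + 1) (-0.57, limma adjusted p = 0.0341), and was at -0.17 without DMSO replicate 2 (edgeR adjusted p = 0.143). MAP3K20 (ZAK), which senses stalled ribosomes, averaged 11.2 ± 1.01 CPM in beta-ST and 11.4 ± 1.97 CPM in DMSO libraries.

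Within the mixed-lineage kinase family, MAP3K9 (MLK1) and MAP3K11 (MLK3) fell. MAP3K11 had 71.4, 63.8 and 67.9 CPM in beta-ST libraries, against 122.6, 104.9 and 160.5 CPM in DMSO libraries (log2 fold change -0.93 ± 0.17, edgeR adjusted p = 0.00295). MAP3K9 had 17.1, 19.4 and 20.7 CPM in beta-ST libraries, against 30.6, 32.1 and 33.9 CPM in DMSO libraries (log2 fold change -0.76 ± 0.13, edgeR adjusted p = 0.00241). Neither pair of groups overlapped, and for MAP3K9 the DMSO libraries were close together. MAP3K10 (MLK2) averaged 27.9 ± 2.08 CPM in beta-ST and 34.6 ± 7.37 CPM in DMSO libraries, which overlapped (log2 fold change -0.31, edgeR adjusted p = 0.178). Without DMSO replicate 2 the value for MAP3K10 was -0.45 (edgeR adjusted p = 0.00606), and without DMSO replicate 3 it was -0.098 (edgeR adjusted p = 0.572). MAP3K12 (DLK), known for axon injury signalling, averaged 16.3 ± 0.70 CPM in beta-ST and 22.3 ± 2.44 CPM in DMSO libraries and fell by 0.45 ± 0.13 (edgeR adjusted p = 0.0269). The MAP3K12 call was kept without DMSO replicate 2 and ended without each of the other libraries, at adjusted p of 0.0525 to 0.112. PCBP2, which overlaps 18.7% of the MAP3K12 exons, averaged 189.5 CPM in beta-ST and 189.6 CPM in DMSO libraries. MAP3K13 (LZK) lay just inside the count minimum with a sum of 83 and missed the threshold.

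MAP3K14 encodes NIK, the kinase that starts non-canonical NF-kB signalling downstream of CD40 and the BAFF receptor. It had 17.6, 17.6 and 18.9 CPM in beta-ST libraries, against 35.1, 24.1 and 40.2 CPM in DMSO libraries. The groups did not overlap, DMSO replicate 2 being the lowest of its group, and MAP3K14 fell by 0.88 ± 0.19 on the log2 scale (edgeR adjusted p = 0.00701). On the scale of log2(TPM + 1) the value was as large (-0.94), but the call was lost (limma adjusted p = 0.0636). MAP3K14-AS1, an antisense gene over 12.3% of its exons, was listed at 0.

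In the MAP4K tier MAP4K4 was past the threshold and the other 4 kinases missed it. MAP4K4 (HGK), a kinase upstream of JNK, had 75.9, 78.5 and 79.0 CPM in beta-ST libraries, against 131.0, 186.1 and 121.4 CPM in DMSO libraries. It fell by 0.91 ± 0.17 on the log2 scale (edgeR adjusted p = 0.00367), with groups that did not overlap and DMSO replicate 2 highest. MAP4K1 (HPK1), a blood-cell kinase that dampens antigen receptor signalling, had 45.7, 49.9 and 51.2 CPM in beta-ST libraries, against 35.6, 48.6 and 37.8 CPM in DMSO libraries. DMSO replicate 2 reached into the beta-ST range, and the log2 fold change of 0.27 ± 0.15 missed the threshold (edgeR adjusted p = 0.175). Without DMSO replicate 2 it was 0.41 and past the threshold (edgeR adjusted p = 0.00422). MAP4K2 averaged 169.5 ± 6.98 CPM in beta-ST and 171.7 ± 20.8 CPM in DMSO libraries. MAP4K3 (GLK) averaged 4.12 ± 0.59 CPM in beta-ST and 4.04 ± 0.68 CPM in DMSO libraries, and MAP4K5 averaged 28.2 ± 2.94 CPM in beta-ST and 34.0 ± 10.6 CPM in DMSO libraries; the groups of all 3 overlapped.

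**Figure D2:**
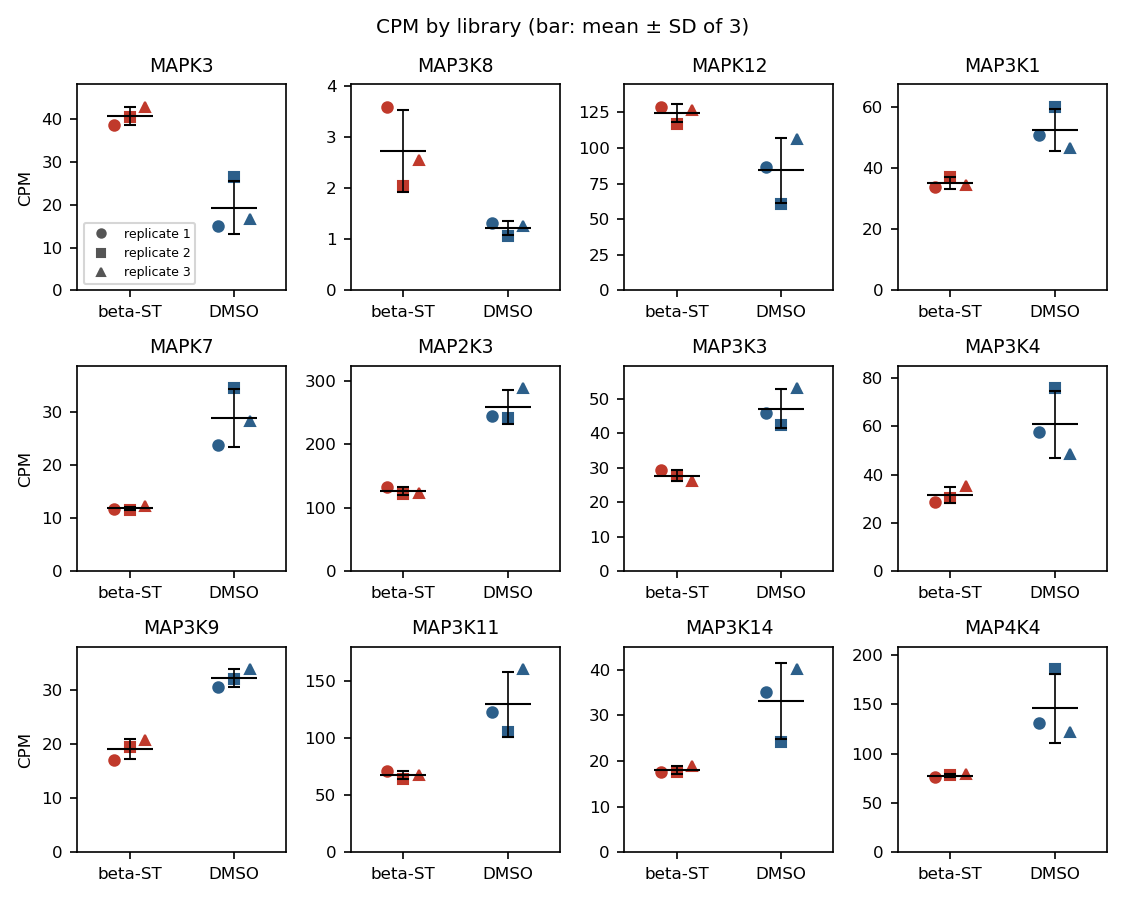
CPM (linear axes from 0) in each library for 12 kinases; circles, squares and triangles are replicates 1, 2 and 3, with beta-ST in red and DMSO in blue, and the bars are the mean ± SD of 3 libraries. The beta-ST libraries lie closer together than the DMSO libraries in most panels, and the groups do not overlap in any panel.

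The promoters of the 4 kinases that changed by more than 2-fold are shown to set the sequence upstream of the risers beside that of the fallers. They are the 250 bases before the RefSeq start on GRCh38.p14, written 5′ to 3′ on the gene's strand, with capitals marking motif matches. MAPK3 (chr16:30123221-30123470, minus strand) and MAP3K8 (chr10:30433771-30434020, plus strand) rose, and MAP2K3 (chr17:21284461-21284710, plus strand) and MAPK7 (chr17:19377500-19377749, plus strand) fell.
MAPK3: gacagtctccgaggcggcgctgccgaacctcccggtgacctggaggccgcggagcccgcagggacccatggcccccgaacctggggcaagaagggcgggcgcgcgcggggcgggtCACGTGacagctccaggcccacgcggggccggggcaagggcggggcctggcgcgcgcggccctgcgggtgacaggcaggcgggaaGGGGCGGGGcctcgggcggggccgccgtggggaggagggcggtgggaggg
MAP3K8: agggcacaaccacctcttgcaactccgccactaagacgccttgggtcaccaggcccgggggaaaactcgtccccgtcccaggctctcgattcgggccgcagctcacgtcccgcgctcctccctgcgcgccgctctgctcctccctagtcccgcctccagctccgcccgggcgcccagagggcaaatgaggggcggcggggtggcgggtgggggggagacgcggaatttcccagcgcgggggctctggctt
MAP2K3: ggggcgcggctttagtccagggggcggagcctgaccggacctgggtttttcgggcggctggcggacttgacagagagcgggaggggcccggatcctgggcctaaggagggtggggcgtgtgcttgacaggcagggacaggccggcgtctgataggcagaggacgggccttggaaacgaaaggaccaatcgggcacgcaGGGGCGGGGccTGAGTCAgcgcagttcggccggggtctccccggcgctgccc
MAPK7: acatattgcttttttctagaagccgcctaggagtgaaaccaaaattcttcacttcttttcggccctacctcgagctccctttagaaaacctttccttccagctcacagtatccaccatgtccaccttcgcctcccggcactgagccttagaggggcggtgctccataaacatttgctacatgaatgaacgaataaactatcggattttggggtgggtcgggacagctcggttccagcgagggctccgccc
The motifs searched, on either strand, were AP-1 (TGANTCA), CRE (TGACGTCA), the E-box CACGTG, ETS (CCGGAAG), SP/KLF (GGGGCGGGG) and NF-kB (GGGA, any base, then TTTCC). The capitals mark an E-box and an SP/KLF match for MAPK3, and an SP/KLF match followed by an AP-1 match for MAP2K3. The windows of MAP3K8 and MAPK7 held none of these letter strings. Other forms of the motifs, including other NF-kB strings, were not searched, so sites of those forms may be present in any window. RefSeq windows were found for 34 of the 36 kinases. An SP/KLF match was present in 11 of them (32.4%), against 15.4% of 27305 promoter windows of the same length. The median GC content was 72.8% in the kinases' windows and 58.0% in all windows. An AP-1 match was found in 1 of the 34 windows (MAP2K3), against 6.60% of all windows, an E-box in 2 (MAPK3 and MAPK12), against 6.49%, and an NF-kB match in 0, against 0.546%. CRE matches were in 2 windows (MAPK10 and MAP3K13), against 1.77% of all windows, and ETS matches in 2 (MAP3K6 and MAP3K7), against 8.82%. In 18 windows no motif was found. A match is a string of letters and not a measured binding site.

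The tiers and arms hold few genes each, so their counts were set beside the background over all genes tested, of which 40.8% were called, 19.0% higher and 21.8% lower. The MAP2K tier had 0 rises and 2 falls among 6 kinases (33.3% called, median log2 fold change -0.35), and the MAP4K tier 0 rises and 1 fall among 5 (median -0.02). By arm, JNK had 0 rises and 1 fall among 5 (median -0.15), p38 1 rise and 2 falls among 4 (75.0% called, median -0.52), and ERK5 0 rises and 2 falls among 4 (50.0% called, median -0.64). With so few members these shares lie near or on either side of the background, and differences between tiers and between arms were not tested.

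The makeup of each tier was described as shares of its summed TPM, a unit scaled for gene length. In the MAPK tier MAPK3 took 8.77% ± 0.704 in beta-ST and 4.16% ± 1.32 in DMSO libraries, and MAPK12 took 19.8% ± 1.22 in beta-ST and 13.5% ± 3.90 in DMSO libraries. MAPK6 took 16.8% ± 1.03 in beta-ST and 14.7% ± 2.99 in DMSO libraries, so it lay below MAPK12 in the beta-ST means and above it in the DMSO means. In the MAP2K tier MAP2K3 took 23.1% ± 0.543 in beta-ST and 35.8% ± 1.5 in DMSO libraries, and MAP2K1 took 24.0% ± 0.693 in beta-ST and 13.6% ± 1.32 in DMSO libraries. MAP2K3 had the largest mean share of the tier in DMSO, but in DMSO replicate 3 MAP2K2 was at 35.4% and MAP2K3 at 35.0%. In beta-ST libraries MAP2K3 came after MAP2K2 and MAP2K1, and MAP2K2 led with 35.5% ± 0.629. The p38 genes together took 30.3% ± 1.20 of the MAPK tier in beta-ST libraries and 26.0% ± 6.65 in DMSO libraries, where replicate 2 was at 18.6%. In the MAP3K tier MAP3K2 took 12.2% ± 0.972 in beta-ST and 6.74% ± 1.06 in DMSO libraries. MAP3K7 had the largest mean share in both groups, with 18.7% ± 0.632 in beta-ST and 17.4% ± 4.11 in DMSO libraries. In DMSO replicate 3, however, MAP3K11 was at 20.3% and MAP3K7 at 13.8%. MAP4K2 held 53.5% ± 2.03 of the MAP4K tier in beta-ST and 51.1% ± 8.04 in DMSO libraries.

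These shares depend on the gene lengths behind the deposited TPM, which no source used here states. With GENCODE v29 exon lengths in their place, MAPK12 took 21.7% ± 1.22 in beta-ST and 15.7% ± 4.49 in DMSO, and MAPK3 18.3% ± 1.15 in beta-ST and 9.19% ± 2.81 in DMSO. The directions of these kinases were as before, but MAPK6, at 11% ± 0.733 in beta-ST and 10.2% ± 2.08 in DMSO libraries, then lay below MAPK12 in both groups. MAP2K3 then led its tier in both groups, with 37.4% ± 0.782 in beta-ST and 51.5% ± 1.29 in DMSO libraries.

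**Figure D3:**
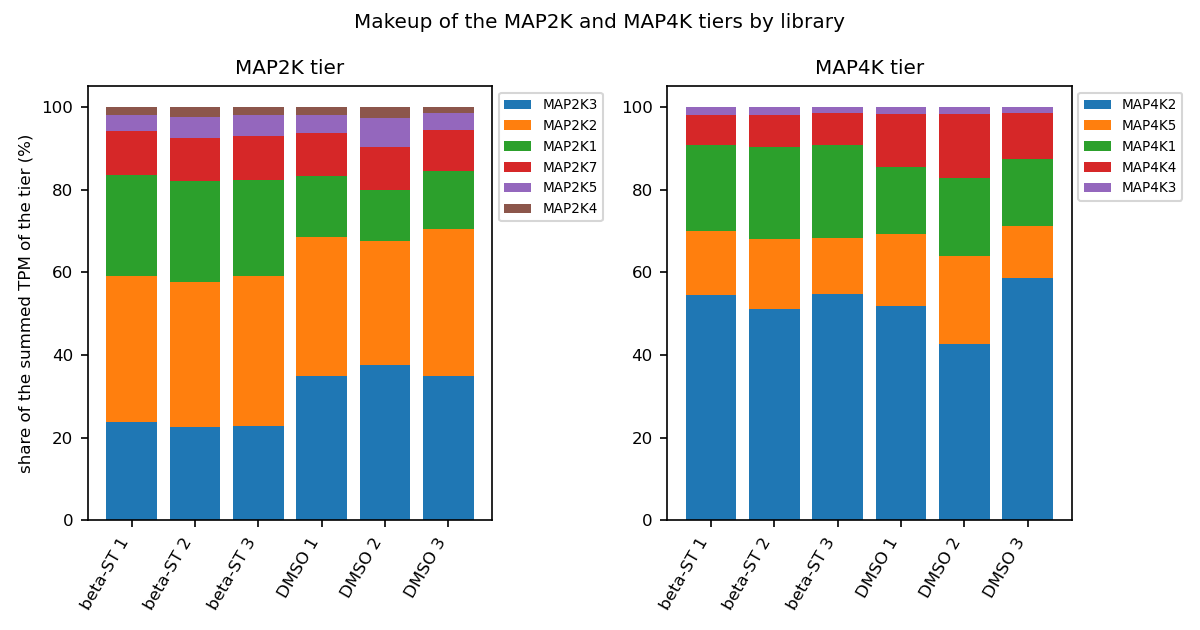
Share of the summed TPM of the MAP2K tier (left) and the MAP4K tier (right) taken by each kinase, in percent, in each of 3 beta-ST and 3 DMSO libraries. The MAP2K3 and MAP4K4 segments are smaller, and the MAP2K1 and MAP4K1 segments are larger, in every beta-ST library than in every DMSO library. A segment can grow because other kinases of its tier fall.

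Ratios of related kinases within a library do not depend on the scaling between libraries, so 9 pairs were compared as log2 ratios of counts. The smallest p that an exact two-sided permutation test can give with 3 libraries per group is 0.10, so no pair could reach 0.05, and p-values were adjusted over the 9 pairs, of which 8 are given here. The MAP3K3 to MAP3K2 ratio was -0.56, -0.54 and -0.47 in beta-ST libraries, against 0.42, 0.44 and 1.05 in DMSO libraries. The groups did not overlap, with a difference of -1.16 (exact p = 0.1, adjusted p = 0.15). The sign of a count ratio depends on the lengths of the 2 genes, so it does not rank them. As an unlogged ratio of TPM, MAP3K3 to MAP3K2 was 0.443, 0.448 and 0.472 in beta-ST libraries. In DMSO libraries it was 0.875, 0.887 and 1.35. The MAP2K2 to MAP2K1 ratio averaged 1.61 ± 0.07 in beta-ST and 2.33 ± 0.06 in DMSO libraries, and the MAP3K11 to MAP3K10 ratio averaged 1.28 ± 0.03 in beta-ST and 1.90 ± 0.04 in DMSO libraries. These ratios varied little within a group, DMSO replicate 2 included, and their groups did not overlap (exact p = 0.1, adjusted p = 0.15 for each).

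The MAPK14 to MAPK13 ratio averaged 5.08 ± 0.29 in beta-ST and 4.45 ± 0.27 in DMSO libraries, and the MAPK9 to MAPK8 ratio 1.44 ± 0.08 in beta-ST and 1.17 ± 0.13 in DMSO libraries, both with groups that did not overlap (exact p = 0.1, adjusted p = 0.15 for each). The MAP2K7 to MAP2K4 ratio averaged 1.79 ± 0.21 in beta-ST and 1.79 ± 0.39 in DMSO libraries, so the JNK-directed MAP2Ks showed no difference beyond their spread (exact p = 1.0, adjusted p = 1.0). MAP3K5 to MAP3K6 averaged 1.88 ± 0.49 in beta-ST and 2.69 ± 0.59 in DMSO libraries (exact p = 0.2, adjusted p = 0.257), and MAP4K1 to MAP4K2 averaged -1.79 ± 0.10 in beta-ST and -2.09 ± 0.35 in DMSO libraries (exact p = 0.4, adjusted p = 0.45); the groups of these pairs overlapped.

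**Figure D4:**
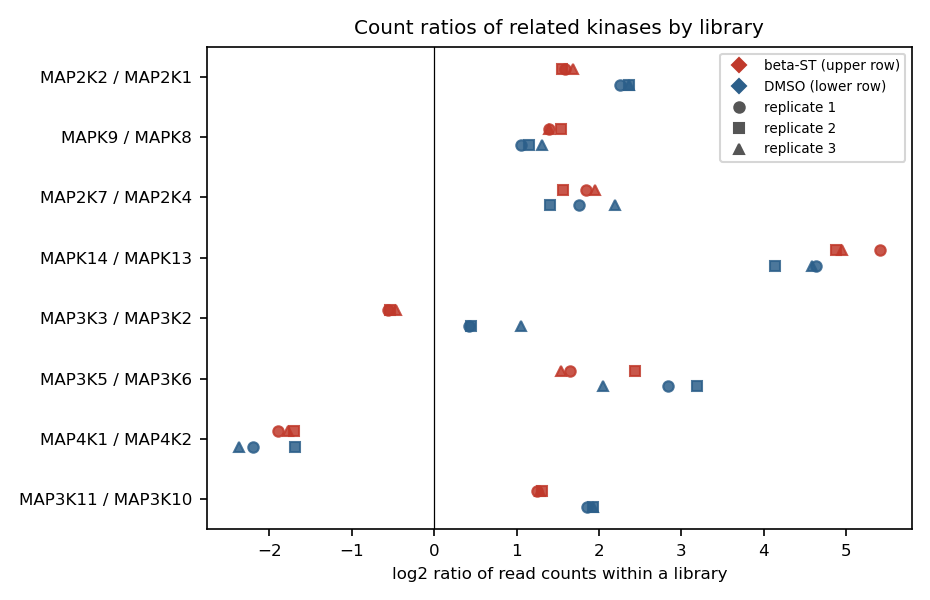
Log2 ratio of read counts of 8 pairs of related kinases in each library (beta-ST red, upper row of each pair; DMSO blue, lower row; circles, squares and triangles are replicates 1, 2 and 3). MAP3K3 / MAP3K2 shows a difference of -1.16 between group means, and MAP2K7 / MAP2K4 shows none beyond the spread.

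Around the cascade kinases, listed genes of the same pathways were read against the same background of 40.8% called, 19.0% higher and 21.8% lower. Of 10 further kinases, mainly of the STE20 class that also holds the MAP4Ks, 0 rose and 4 fell (40.0% called, median -0.46): MINK1, a close relative of MAP4K4 (log2 fold change -0.77), NLK (-0.70), TAOK3 (-0.94) and STK4 (-0.50). Upstream, 3 of 12 RAS and exchange factor genes rose and 2 fell (41.7% called, close to the background, median -0.01), with RRAS at a log2 fold change of 1.89 and RRAS2 at 0.74 against the adaptors SHC1 at -0.59 and GRB2 at -0.53.

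Of 23 tested scaffolds and kinase partners, 1 rose and 7 fell (34.8% called, median -0.27). The share called was below the background. The share that fell was 30.4%, against 21.8% of all genes, and the share that rose was 4.35%, against 19.0%. The named fallers were MAPKAP1 (log2 fold change -0.84), NFKB1 (-0.67), whose p105 product holds the MAP3K8 kinase, TAB1 (-0.72), which binds MAP3K7, and TRIB2 (-0.66). NFKB1 averaged 56.4 ± 0.91 CPM in beta-ST and 89.6 ± 4.17 CPM in DMSO libraries (edgeR adjusted p = 0.00188). Of 9 MAPK-activated kinases, 0 rose and 4 fell (44.4% called, median -0.38): MAPKAPK2, a kinase that p38 activates (-0.68), MKNK2 (-0.66), RPS6KA1 (-0.51) and MAPKAPK5 (-0.39). Of 8 dual-specificity phosphatases, which switch MAPKs off, 2 rose and 0 fell (25.0% called, median 0.24), and DUSP1 averaged 28.2 ± 0.48 CPM in beta-ST and 12.7 ± 3.27 CPM in DMSO libraries (log2 fold change 1.15, edgeR adjusted p = 0.00193).

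Among 19 tested transcription factors that MAPKs phosphorylate, 3 rose and 8 fell (57.9% called, median -0.44). The risers were the AP-1 genes JUN, FOS and JUNB. JUN averaged 268.1 ± 13.3 CPM in beta-ST and 6.65 ± 0.77 CPM in DMSO libraries, which is 5.33 on the log2 scale (edgeR adjusted p = 1.78e-06). FOS averaged 66.2 ± 1.46 CPM in beta-ST and 2.17 ± 0.51 CPM in DMSO libraries, which is 4.93 on the log2 scale (edgeR adjusted p = 1.36e-05), and JUNB rose by 2.0 on that scale. These changes were far beyond the range of -1.28 to 1.16 seen among the kinases. ETS1 averaged 118.0 ± 0.50 CPM in beta-ST and 276.9 ± 24.5 CPM in DMSO libraries and fell by 1.23 on the log2 scale (edgeR adjusted p = 0.000204).

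The remaining symbols of the family were outside the set. MAP3K21 was listed at 0 in all libraries, from which no statement on its expression is drawn, and MAPK4, MAP3K19, MAPK15 and MAP3K15 summed to 3, 6, 8 and 12 counts. Together with MAP2K6 at 28 and MAPK11 at 38 counts these made 7 symbols, and the nearest kinase inside the minimum was MAP3K13 at 83.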

How the data were processed

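Per the labels' protocols, RNA was isolated with TRIzol reagent and made into Illumina libraries; no source used here states strand use or the gene annotation. The tools in the submitters' processing notes are StringTie 2.2.1, featureCounts 2.0.1, STAR 2.7.10 and fastp 0.23.2, with GRCh38 as build and no roles given. The authors deposited whole read counts per gene and TPM per gene. For genes with at least 20 counts in every library, TPM was the count divided by constants of the gene and the library, so TPM is the same measurement rescaled; the listed TPM summed to 57.0 to 57.8% of a full TPM total in beta-ST libraries and to 39.5 to 69.2% of it in DMSO libraries.

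Of 65807 rows, 61 repeated an earlier symbol and were dropped (2 of them held counts). Counts were tested in R 4.3.3 with edgeR 4.0.16 (filterByExpr, TMM, glmQLFit and glmQLFTest, treatment only, two-sided, Benjamini-Hochberg, threshold 0.05). For each gene the SE was the size of the log2 fold change divided by √F. The procedure was also run on simulated counts, with the same dispersion in both groups and far fewer changed genes than were called here. That setting differs from these data, so no support is drawn from it. Count ratios took no pseudocount (0.5 added to each count was an alternative) and needed at least 10 counts of each gene in every library; MAP2K3 to MAP2K6, 1 of 10 pairs, was left out. Alternatives were RLE factors, library totals, no filter, 1 CPM in 3 libraries, DESeq2 1.42.0, limma 3.58.1 (voom, or trend on log2(TPM + 1) and log2(TPM + 0.1)), a replicate block, removal of the length trend and each library left out; shares by GENCODE v29 lengths were added after seeing the data. All but 1 of the kinases are described; that kinase, its ratio and its shares, and 1 pathway list are not reported here, though counts and medians over all kinases include the kinase. Of the other pathway lists, up to 4 genes each are named by smallest p among those past the threshold at 5 CPM or more. The members and lists were chosen with earlier results of these data known. Some genes overlap others, and reads there cannot be assigned with certainty.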

Additional observations from a re-analysis of the deposited data

How the results depend on the processing

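Of the 36 kinases, 8 were past the threshold in every alternative run (MAPK3, MAPK7, MAP2K3, MAP3K3, MAP3K4, MAP3K9, MAP3K11 and MAP4K4), and 10 in none. Per run, 25.5 to 56.6% of all genes tested were called. The share of all genes called in every run or in none is not given, so these counts have no background beside them. The number of kinases that rose was 3 and became 5 with RLE factors, 6 with DESeq2 and 1 on either TPM scale, and it ran from 2 to 6 when a library was left out. The number that fell ran from 8 to 18 when a library was left out, against 14 with all libraries. The 4697 calls over all genes became 2939 on log2(TPM + 1) and 2935 on log2(TPM + 0.1), where 24.3% and 23.5% of calls were higher, against 46.5% on counts, and the all-gene median moved to -0.19 and -0.26; without a library the calls ran from 3094 to 6640, the most being without DMSO replicate 2. Relative to the all-gene median, the kinases' median was -0.28 on log2(TPM + 1) and -0.27 on counts.

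Kinases near zero changed sign: on log2(TPM + 1) and log2(TPM + 0.1) MAPK6 came to -0.0487 and -0.0505, MAPK9 to -0.11 and -0.12 and MAP4K3 to -0.11 and -0.21; with the length trend removed MAPK8 came to 0.14, MAP3K13 to 0.0681, MAP3K20 to 0.0897 and MAP4K2 to 0.11; with RLE factors and with DESeq2 MAP3K20 came to 0.0148 and MAP4K2 to 0.0098. With a library left out MAP3K20 ran from -0.12 to 0.059, MAP4K2 from -0.0849 to 0.12 and MAP4K3 from -0.07 to 0.14, and the beta-ST minus DMSO difference of the MAP2K7 to MAP2K4 log2 ratio ran from -0.19 to 0.20. The cause was not tested.

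Replicate numbers were shared by the groups, but same-numbered libraries deviated together with correlations of 0.04, 0.10 and 0.15, so the numbers were not taken to pair them. With a replicate block 4743 genes were called, and 5 kinases rose and 12 fell; 14 of the 17 calls were shared, MAP2K7 (adjusted p = 0.0703) and MAP3K5 (0.0789) were among those not called, and MAP2K5 (0.0269), MAP3K2 (0.0443) and MAPK10 (0.0386) were called in addition. Depth limits MAP3K13, MAPK10, MAPK13, MAP3K8 and MAP3K6, and the symbols under 60 counts. Intervals and SE cover the spread of 3 libraries.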
